A study of Homo sapiens with 9 samples.

Results

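The 6 genes described here, CXCL1, CXCL2, CXCL3, CXCL5, CXCL6 and CXCL8, encode neutrophil-attracting CXC chemokines and lie near one another on human chromosome 4. They were chosen by name from the ELR-motif family and matched to Ensembl gene IDs through a gene name table. All 6 were found among the 36601 genes of the count files, and all 6 were among the 15560 genes with enough counts to test. The cells were of the immortalised human line LX2, which derives from hepatic stellate cells, the liver pericytes that make scar collagen when activated. They received siRNAs against YAP (siYAP), siRNAs against TAZ (siTAZ) or non-targeting siRNAs (siNT), each at 20 nM with the lipid reagent RNAiMAX. All groups grew in DMEM with 10% fetal bovine serum and antibiotics and were harvested after 7 days, with 3 libraries per group. YAP (gene YAP1) and TAZ (gene WWTR1) are transcriptional coactivators of the Hippo pathway. LX2 is a single line, the siRNA sequences are not given in the labels, and the labels call the libraries biological replicates but do not say whether they came from separate transfections. The p-values therefore measure the spread between these libraries only.

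ELR-motif CXC chemokines carry a glutamate-leucine-arginine motif ahead of their first cysteines and draw neutrophils out of the blood through the receptors CXCR1 and CXCR2. Their genes arose by duplication, and their transcription is classically switched on by interleukin-1, tumour necrosis factor and bacterial products through NF-kB, together with AP-1 and C/EBP factors. Their mRNAs are short-lived because AU-rich elements in the 3′ untranslated region recruit decay factors. In injured liver, stellate cells are a known source of these chemokines.

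The bases just upstream of each gene's start are shown because a candidate NF-kB site is written in all of them. The part of that site in the levels of the 6 genes was not tested. Each sequence below runs 5′ to 3′ on the gene's own strand over bases -100 to -1 before the start of the RefSeq gene (build GRCh38.p14), and capitals mark GGAATTTCC, the word that forms the well-known NF-kB element of the CXCL8 promoter.
CXCL8: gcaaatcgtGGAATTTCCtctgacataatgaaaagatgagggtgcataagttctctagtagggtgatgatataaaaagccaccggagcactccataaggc
CXCL6: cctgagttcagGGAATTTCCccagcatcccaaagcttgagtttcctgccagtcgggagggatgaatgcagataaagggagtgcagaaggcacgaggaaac
CXCL5: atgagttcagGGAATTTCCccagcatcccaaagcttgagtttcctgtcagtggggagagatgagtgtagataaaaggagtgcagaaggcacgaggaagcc
CXCL1: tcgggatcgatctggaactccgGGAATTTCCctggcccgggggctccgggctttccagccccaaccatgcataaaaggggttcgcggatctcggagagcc
CXCL2: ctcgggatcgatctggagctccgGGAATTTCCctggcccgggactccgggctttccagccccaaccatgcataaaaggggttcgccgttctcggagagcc
CXCL3: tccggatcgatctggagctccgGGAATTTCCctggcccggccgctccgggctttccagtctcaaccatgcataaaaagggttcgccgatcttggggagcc
These stretches lie at chr4:73740469-73740568 for CXCL8, chr4:73836578-73836677 for CXCL6 and chr4:73869293-73869392 for CXCL1, all on the plus strand. On the minus strand they lie at chr4:73998678-73998777 for CXCL5, chr4:74099196-74099295 for CXCL2 and chr4:74038690-74038789 for CXCL3.

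The targeted genes were checked first. YAP1 averaged 26.3 ± 1.49 CPM (counts relative to the TMM-scaled library size) in siYAP libraries, 170.0 ± 8.01 in siTAZ libraries and 209 ± 4.11 in siNT libraries (SD, n = 3 each), and its log2 fold change in siYAP over siNT was -2.99 (SE 0.05). WWTR1 averaged 75.8 ± 0.522 CPM in siYAP libraries, 9.53 ± 0.917 in siTAZ libraries and 62.0 ± 5.50 in siNT libraries, with a log2 fold change of -2.70 (SE 0.08) in siTAZ over siNT. Library totals ran between 16498508 and 18752805 counts in genes, so that 1 count was worth 0.0522 to 0.0591 CPM. Of 10 stellate cell markers, 8 were tested, among them COL1A1, PDGFRB, VIM and ACTA2, while LRAT, which stores vitamin A in resting stellate cells, had 0 counts in every library.

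All 6 chemokine genes rose after YAP knockdown, in a comparison in which 33.8% of the 15560 tested genes were called higher and 67.1% were called in either direction (edgeR's quasi-likelihood test, Benjamini-Hochberg adjusted p under 0.05, which also defines a call below). Their median log2 fold change was 4.88, against 0.02 for all tested genes. Together the 6 genes summed to 2829, 2661 and 2647 CPM in siYAP libraries and to 70.2, 60.6 and 65.2 CPM in siNT libraries. They held 0.278% ± 0.0118 of all counts in genes in siYAP libraries and 0.00636% ± 0.000447 in siNT libraries (SD, n = 3 each). In bulk RNA, a change in how many cells make a transcript and a change in its level per cell cannot be told apart.

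CXCL8, or interleukin-8, is the family member that binds both CXCR1 and CXCR2 with high affinity. It stood at 1351, 1285 and 1245 CPM in the siYAP libraries, at 8.93, 8.90 and 6.69 CPM in the siTAZ libraries, and at 37.4, 29.7 and 30.9 CPM in the siNT libraries. The 3 groups did not overlap, with siYAP highest and siTAZ lowest. In siYAP over siNT the log2 fold change was 5.31 (SE 0.08), or 39.6-fold, with an adjusted p of 2.49e-13 (edgeR). It was -1.99 (SE 0.12) in siTAZ over siNT, a level 3.98-fold lower, with an adjusted p of 3.28e-07 (edgeR). CXCL8 was the member that fell most after TAZ knockdown, and it ranked 75 among the 15560 tested genes ordered from the largest fall.

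CXCL1, CXCL2 and CXCL3 are the closely related GRO chemokines, which signal through CXCR2. CXCL1 stood at 576, 496 and 529 CPM in the siYAP libraries, at 12.1, 9.77 and 7.79 CPM in the siTAZ libraries, and at 18.9, 17.4 and 18.9 CPM in the siNT libraries. Again no groups overlapped and siTAZ was lowest. CXCL1 rose 29-fold in siYAP over siNT (log2 4.86, SE 0.10, edgeR adjusted p = 9.93e-13) and fell by 0.89 on the log2 scale in siTAZ over siNT (SE 0.14, edgeR adjusted p = 0.000562). CXCL2 stood at 52.0, 53.3 and 52.4 CPM in the siYAP libraries, at 1.08, 1.26 and 0.865 CPM in the siTAZ libraries, and at 1.71, 1.78 and 2.83 CPM in the siNT libraries. The order of the groups was the one seen for CXCL1, without overlap, and siNT replicate 3 was the highest of the control libraries. CXCL2 rose 24.8-fold in siYAP over siNT (log2 4.63, SE 0.13, edgeR adjusted p = 5.16e-40) and fell by 0.98 on the log2 scale in siTAZ over siNT (SE 0.24, edgeR adjusted p = 0.000978).

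CXCL3 was the least abundant member, with 384, 419 and 343 counts in the siYAP libraries, 15, 8 and 7 counts in the siTAZ libraries, and 1, 17 and 18 counts in the siNT libraries. The siYAP libraries stood far above the others, the siTAZ and siNT libraries overlapped, and the single count of siNT replicate 1 set that library apart from the other controls. The rise in siYAP over siNT was 29.9-fold (log2 4.90, SE 0.26, edgeR adjusted p = 5.93e-19). The log2 fold change of -0.32 (SE 0.46) in siTAZ over siNT did not pass the test (edgeR adjusted p = 0.649), with a 95% interval of -1.22 to 0.58. With so few counts in siTAZ and siNT libraries, a difference of the size seen for CXCL1 was not detectable for CXCL3.

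CXCL5 and CXCL6 form another related pair: CXCL5, first named ENA-78, acts mainly through CXCR2, and CXCL6, or GCP-2, acts through CXCR1 and CXCR2. CXCL5 stood at 664, 648 and 648 CPM in the siYAP libraries, at 4.93, 3.39 and 3.63 CPM in the siTAZ libraries, and at 4.95, 4.72 and 5.49 CPM in the siNT libraries. Its siYAP libraries lay within a few percent of one another, and siTAZ replicate 1 fell among the siNT libraries. CXCL5 showed the largest rise of the 6 genes in siYAP over siNT, 129-fold (log2 7.01, SE 0.06, edgeR adjusted p = 6.01e-69), and ranked 29 among all tested genes. CXCL5 fell by 0.34 on the log2 scale in siTAZ over siNT (SE 0.12, edgeR adjusted p = 0.031). That call was lost on leaving out siTAZ replicate 2 (adjusted p = 0.228), siTAZ replicate 3 (0.134), siNT replicate 1 (0.0525) or siNT replicate 3 (0.157), and in a fit of these 2 groups alone (0.198), all with edgeR.

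CXCL6 stood at 166, 157 and 153 CPM in the siYAP libraries, at 8.23, 4.37 and 4.56 CPM in the siTAZ libraries, and at 7.13, 6.10 and 6.06 CPM in the siNT libraries. The siYAP libraries were again far above the rest, while siTAZ replicate 1 was higher than every siNT library and the other two siTAZ libraries were lower than all of them. CXCL6 rose 24.7-fold in siYAP over siNT (log2 4.62, SE 0.13, edgeR adjusted p = 3.67e-14). Its log2 fold change in siTAZ over siNT was -0.16 (SE 0.20, edgeR adjusted p = 0.585), with a 95% interval of -0.55 to 0.22. Without siTAZ replicate 1 it was -0.53 and passed the test (edgeR adjusted p = 0.00266), and without siTAZ replicate 2 it was 0.00 (adjusted p = 0.994).

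**Figure D1:**
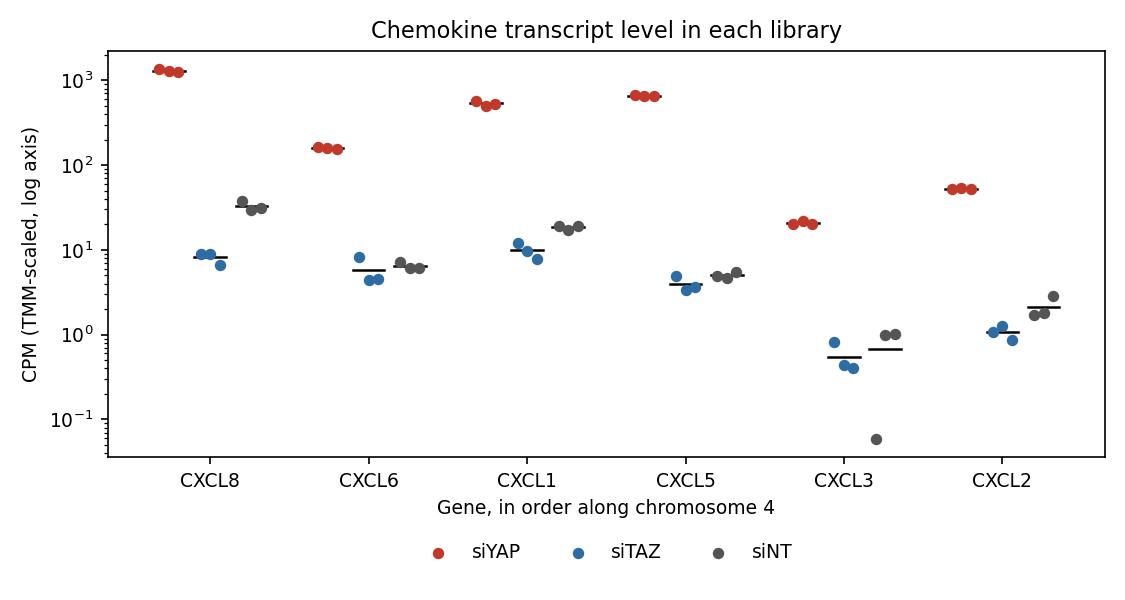
Level of each chemokine gene in each library, in TMM-scaled CPM on a log axis, with genes in their order along chromosome 4, points for the 3 libraries of siYAP, siTAZ and siNT, and a bar at each group's mean. The siYAP points lie above all others for every gene, and siTAZ lies clear below siNT for CXCL8, CXCL1 and CXCL2 only; the lowest CXCL3 point of siNT is the library with 1 count.

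After TAZ knockdown, 4 of the 6 genes were called lower, CXCL8, CXCL2, CXCL1 and CXCL5, and 0 were called higher, while 18.2% of all tested genes were called lower and 34.6% were called in either direction. The median log2 fold change of the 6 was -0.62, against 0.01 for all tested genes. In 3 of them, CXCL8, CXCL1 and CXCL2, every siTAZ library lay below every siNT library, and 22.8% of all tested genes had that order. The 6 genes summed to 36.1, 28.1 and 23.9 CPM in siTAZ libraries, all below the 60.6 to 70.2 CPM of siNT libraries. The siYAP and siTAZ comparisons share the siNT libraries, so their results are given side by side and are not independent.

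Set directly against siYAP, the siTAZ libraries were lower for all 6 genes, with 33.2% of tested genes called lower and 66.2% called in either direction in that comparison. The log2 fold changes in siTAZ over siYAP were -7.35 (SE 0.06) for CXCL5, -7.30 (SE 0.10) for CXCL8, -5.75 (SE 0.10) for CXCL1, -5.61 (SE 0.15) for CXCL2, -5.22 (SE 0.27) for CXCL3 and -4.79 (SE 0.13) for CXCL6. These correspond to levels 164-fold lower for CXCL5 and 27.6-fold lower for CXCL6 in siTAZ libraries. The median was -5.68, against -0.01 over all tested genes. Adjusted p-values of the 6 lay between 1.88e-69 and 4.72e-13 (edgeR).

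The genes did not all rise by the same amount, and the make-up of the set differed between groups. Levels were compared between genes per kilobase of the principal GENCODE transcript. In siYAP libraries the order was CXCL8 (759 CPM per kb), CXCL1 (486), CXCL5 (257), CXCL6 (92.3), CXCL2 (43.2) and CXCL3 (19.4), and no neighbours in that order overlapped between libraries. In siTAZ libraries CXCL1 came first (9.02 CPM per kb), ahead of CXCL8 (4.79), CXCL6 (3.33), CXCL5 (1.57), CXCL2 (0.877) and CXCL3 (0.512), and the libraries of CXCL8 overlapped those of CXCL6, as did those of CXCL2 and CXCL3. In siNT libraries CXCL8 (19.2 CPM per kb) and CXCL1 (16.8) led CXCL6 (3.74), CXCL5 (1.99), CXCL2 (1.73) and CXCL3 (0.638), with overlap between CXCL5 and CXCL2 only. On lengths that count every annotated exon the orders were the same, but CXCL8 and CXCL1 then overlapped in siNT libraries. With those lengths CXCL2 and CXCL3 no longer overlapped in siTAZ libraries.

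The share of CXCL5 was higher in siYAP libraries than in the others. It made up 15.5% ± 0.408 of the 6 genes' length-corrected level in siYAP libraries, 7.86% ± 0.991 in siTAZ libraries and 4.53% ± 0.356 in siNT libraries (SD, n = 3 each), and the ranges of the groups did not overlap. CXCL8 made up 45.8% ± 0.771 in siYAP libraries, 24.1% ± 2.81 in siTAZ libraries and 43.4% ± 3.16 in siNT libraries, so that siTAZ stood apart while siYAP and siNT overlapped. CXCL1 made up 29.3% ± 1.2 in siYAP libraries, 44.8% ± 0.993 in siTAZ libraries and 38.1% ± 1.09 in siNT libraries. CXCL6 made up 5.57% ± 0.0851 in siYAP libraries, 16.3% ± 3.17 in siTAZ libraries and 8.50% ± 0.478 in siNT libraries.

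Each pair of genes was also tested for a difference in its response, as the change in their log2 ratio, over 15 pairs in each of the 3 comparisons. In siYAP over siNT, CXCL5 rose by 2.38 log2 units more than CXCL6, by 2.14 more than CXCL1 and by 1.68 more than CXCL8. In siTAZ over siNT, the change of CXCL6 was 1.77 log2 units above that of CXCL8, and the change of CXCL1 was 1.08 above that of CXCL8. For these 5 pairs the ratio did not overlap between the groups. Of the 15 pairs the ratio was free of overlap in 8 for siYAP over siNT, in 7 for siTAZ over siNT and in 12 for siTAZ over siYAP. Ratios of other gene pairs were not computed, so these counts have no share to be read against. Among single tested genes, levels lay wholly higher in 35.8% and wholly lower in 34.7% for siYAP over siNT. Those shares were 21.8% and 22.8% for siTAZ over siNT, and 33.7% and 34.6% for siTAZ over siYAP. With 3 libraries against 3 the exact two-sided permutation test cannot go below p = 0.1, and the smallest value after Benjamini-Hochberg adjustment over the 45 tests was 0.167, so none passed. CXCL2 and CXCL6 differed in their siYAP response by 0.00 log2 units, but their log2 ratio ran from -1.99 to -1.07 among the siNT libraries alone.

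**Figure D2:**
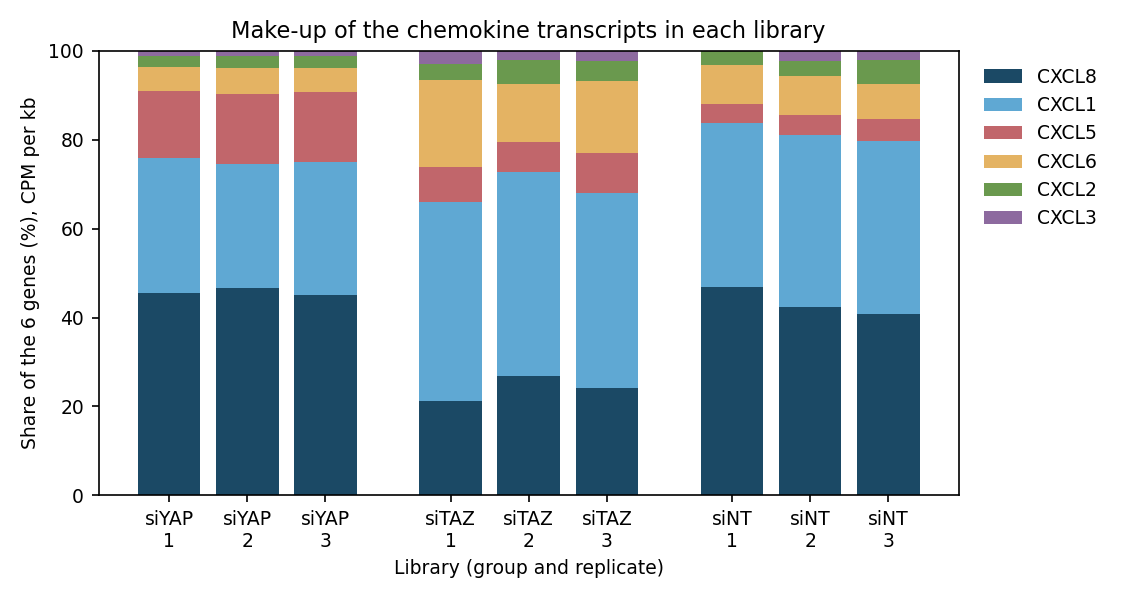
Make-up of the 6 chemokine transcripts in each library, as each gene's percentage of their summed level in CPM per kilobase, with bars for the 3 libraries of siYAP, siTAZ and siNT. The CXCL5 segment is widest in siYAP libraries (15.5% on average, against 4.53% in siNT), and the CXCL8 segment is narrowest in siTAZ libraries (24.1%, against 43.4% in siNT).

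The 6 genes span 358.8 kb, from chr4:73740506 to chr4:74099293 (GENCODE 29 on GRCh38), in the order CXCL8, CXCL6, CXCL1, CXCL5, CXCL3 and CXCL2. The platelet chemokine genes PF4V1, PF4 and PPBP lie among them and had 0, 1 and 2 counts in all 9 libraries together. PPBP had 0 counts in every siYAP library, so not every chemokine gene of the stretch rose. Of 15 listed neighbours, including those 3, 8 had enough counts to test. In siYAP over siNT, 5 of these 8 were called higher and 0 lower, with a median log2 fold change of 1.40. Beside the counts of this and later lists, 33.8% of all tested genes were called higher and 33.4% lower in siYAP over siNT. In siTAZ over siNT those shares were 16.4% and 18.2%.

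Beyond CXCL2 lie EPGN, EREG and AREG, which encode ligands of the epidermal growth factor receptor and had at most 18 counts in any siNT library. EPGN had 35, 49 and 33 counts in siYAP libraries, 1, 4 and 1 in siTAZ libraries and 4, 1 and 7 in siNT libraries (log2 fold change in siYAP over siNT 3.17, SE 0.54, edgeR adjusted p = 5.97e-07). EREG had 45, 43 and 37 counts in siYAP libraries, 12, 3 and 18 in siTAZ libraries and 3, 7 and 5 in siNT libraries (log2 2.95, SE 0.51, edgeR adjusted p = 6.92e-07). AREG rose by 1.73 (SE 0.35, edgeR adjusted p = 1.59e-05) and PARM1 by 2.18 (SE 0.60, edgeR adjusted p = 0.0012). On the other side of the cluster, ANKRD17 rose by 0.17 (SE 0.04), whereas COX18 and AFP were not called. MTHFD2L, which lies between CXCL2 and EPGN, had a log2 fold change of -0.34 (SE 0.17) and was not called (edgeR adjusted p = 0.0718). After TAZ knockdown 1 of the 8 was called, COX18, which was higher by 0.48 (SE 0.11) than in siNT. ALB, AFM, RASSF6 and BTC had too few counts to test.

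**Figure D3:**
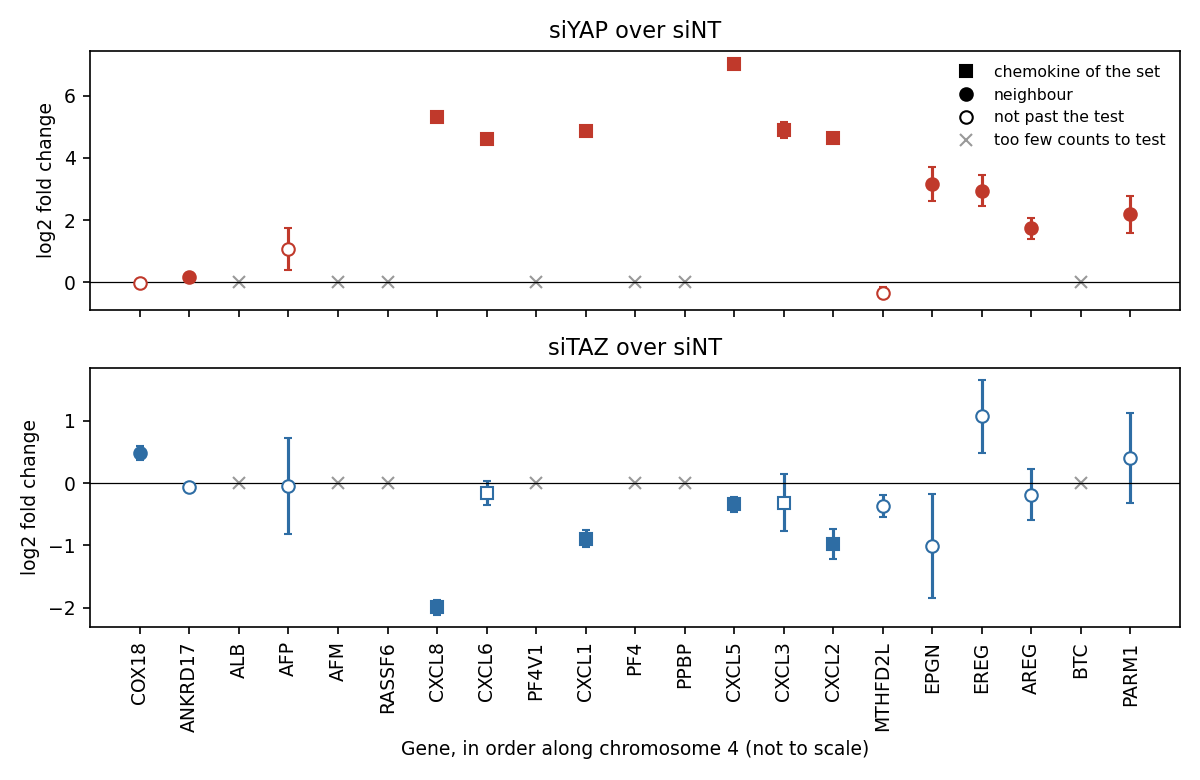
Log2 fold change of the 6 chemokine genes (squares) and their listed neighbours (circles) in order along chromosome 4, not to scale, for siYAP over siNT (upper panel) and siTAZ over siNT (lower panel), with bars of 1 SE, open symbols where the test was not passed and crosses where counts were too few. In the upper panel the chemokine genes lie between 4.62 and 7.01 and MTHFD2L, next to CXCL2, lies at -0.34; the lower panel has a narrower axis, and CXCL8 is lowest at -1.99.

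The promoter stretches fall into 2 related groups and CXCL8. Over the full RefSeq window of 250 bases before to 50 after the start, CXCL5 and CXCL6 were 83.1% identical, CXCL1 and CXCL3 82.5%, CXCL2 and CXCL3 73.8%, and CXCL1 and CXCL2 71.9%, and all other pairs lay between 45.2% and 55.4%. The word GGAATTTCC, searched on both strands, was present on the gene's own strand in 6 of 6 windows and in 162 of 35116 RefSeq promoter windows (0.461%). Because the word was taken from CXCL8, its match there was given in advance. Windows within a related group are not independent matches, so the 2 shares cannot be weighed against each other. The word lay 91 to 83 bases before the start of CXCL8, 89 to 81 before CXCL6, 90 to 82 before CXCL5, 78 to 70 before CXCL1 and CXCL3, and 77 to 69 before CXCL2. The longer general NF-kB consensus overlaps this word and matched in 5 of the 6 windows, all but CXCL8, and in 11.3% of all windows.

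The AP-1 word TGANTCA was found in CXCL8 alone, 137 to 131 bases before the start, and in 7.71% of all windows. The C/EBP word TTNNNCAA was found in CXCL2 alone and in 33.4% of all windows. The TEAD word GGAATG, the site through which YAP and TAZ usually reach DNA, was in none of the 6 windows and in 14% of all windows. A run of ATAAAA, as in a TATA box, lay about 30 bases before the start in all but CXCL6 and occurred in 16% of all windows. These are matches of letters in short windows, and a word that is absent from them may lie elsewhere. A site spelled otherwise than the word searched would be missed inside the windows too, for C/EBP as for the others. The starts are those of RefSeq, and for every member but CXCL1 they lie inside the gene as GENCODE 29 draws it, whose outermost start is further upstream.

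The 3′ ends share a second kind of word. The pentamer ATTTA, the core of AU-rich decay elements, occurred 10 times in the 3′ untranslated region of CXCL2 (13.9 per kb), 7 times in CXCL3 (10.4), 9 times in CXCL8 (7.19), 5 times in CXCL1 (7.08), 11 times in CXCL5 (5.51) and 6 times in CXCL6 (5.36). The median over 12985 tested genes was 1.61 per kb, and the 6 genes exceeded 91.8% to 99.5% of those genes. The 30 bases with the most copies are shown for CXCL8 and the GRO genes to let the repeats be compared, with ATTTA in capitals.
CXCL2: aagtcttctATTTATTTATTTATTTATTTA
CXCL1: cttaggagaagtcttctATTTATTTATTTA
CXCL8: taacctATTTAttATTTAtgtATTTATTTA
CXCL3: ttacgagggttctacttATTTAtgtATTTA
The windows of CXCL1 and CXCL2 share the letters ahead of the repeat, and both carry uninterrupted copies, whereas those of CXCL8 and CXCL3 are broken by short spacers. The same windows of CXCL5 and CXCL6, not shown, held 2 copies, as many as that of CXCL3, and 1 copy.

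Sequence shared between members bears on how reads were assigned. Of all 50-base words in the principal transcripts, 5.73% of CXCL1, 9.24% of CXCL2 and 5.26% of CXCL3 also occurred in another gene, almost all within these 3. The share was 1.12% for CXCL5 and 0 for CXCL6 and CXCL8. The labels do not say how reads with several matches were treated, so the split among CXCL1, CXCL2 and CXCL3 is uncertain. The percentages above are of each gene's own words and do not bound the error. In siYAP libraries CXCL1 averaged 533.6 CPM, CXCL2 52.55 and CXCL3 20.86. A few percent of CXCL1 reads would therefore weigh much more in CXCL2 or CXCL3. CXCL6 shares 94 exon bases with the pseudogene PPBPP1, which is not among the genes counted, and no other member overlaps an annotated gene.

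The receptors for these chemokines were scarce. CXCR2, which binds all 6, had 82, 79 and 77 counts in the siYAP libraries, 12, 11 and 3 in the siTAZ libraries, and 0, 7 and 0 in the siNT libraries. The siYAP libraries were clear of the others, and siTAZ and siNT overlapped. Its log2 fold change was 4.94 in siYAP over siNT (SE 0.53, edgeR adjusted p = 5.29e-12) and 1.78 in siTAZ over siNT (SE 0.71, edgeR adjusted p = 0.0457), both set against controls with 7 counts in all. ACKR1, an atypical receptor that binds chemokines without G protein signalling, had 21, 19 and 20 counts in siYAP libraries, 1, 0 and 1 in siTAZ libraries and 0, 2 and 1 in siNT libraries. ACKR1 overlaps CADM3 in GENCODE 29, so its counts are uncertain. CXCR1 had 1 count in all libraries together.

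Markers of neutrophils, the cells that carry these receptors, stayed near 0: the 9 listed markers summed to 4.12 to 4.55 CPM in siYAP libraries, 0.231 to 0.819 in siTAZ libraries and 0.0566 to 0.518 in siNT libraries, and CXCR2 was the only one with counts in siYAP libraries. FCGR3B, MPO and CEACAM8 had 0 counts in every library, and CSF3R, ELANE, S100A8 and S100A9 had 0 in every siYAP library. Macrophage markers summed to 126 to 131 CPM in siYAP libraries, 22.6 to 24.8 in siTAZ libraries and 34.2 to 37.7 in siNT libraries. Of the 8, 4 were tested, and 2 rose (CD68 and CSF1R) and 1 fell (PTPRC) in siYAP over siNT. CSF1R averaged 2.74 CPM in siYAP libraries, 0.632 in siTAZ libraries and 0.789 in siNT libraries (log2 fold change in siYAP over siNT 1.79, SE 0.38). CD68, a lysosomal protein that many cell types make, averaged 115 CPM in siYAP libraries, 12.4 in siTAZ libraries and 22.3 in siNT libraries, while PTPRC, the pan-leukocyte marker, averaged 0.147 CPM in siYAP libraries, 0.427 in siTAZ libraries and 2.60 in siNT libraries.

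Endothelial markers summed to 117 to 132 CPM in siYAP libraries, 23.3 to 24.1 in siTAZ libraries and 55.9 to 60.6 in siNT libraries, with ERG at 0 in all siYAP and siTAZ libraries. Of their 6 tested genes, 3 were called higher (PECAM1, KDR and TIE1) and 3 lower (CDH5, VWF and TEK) in siYAP over siNT, 0 were called higher and 4 lower in siTAZ over siNT, and TIE1 alone averaged 113 CPM in siYAP libraries. Epithelial markers summed to 149 to 164 CPM in siYAP libraries, 475 to 558 in siTAZ libraries and 621 to 631 in siNT libraries, mostly KRT8 and KRT18, which were the 2 of 3 tested genes called lower in both knockdowns. Stellate markers summed to 3753 to 3824 CPM in siYAP libraries, 9354 to 9508 in siTAZ libraries and 6152 to 6249 in siNT libraries, mostly COL1A1 and COL3A1. Of their 8 tested genes, 2 were called higher in siYAP over siNT (COL1A2 by 1.07 and ACTA2 by 0.65 on the log2 scale). The 5 called lower included PDGFRB (by 1.49), COL1A1 (1.03), COL3A1 (0.64) and VIM (0.13). In siTAZ over siNT 4 were called higher, ACTA2 (by 1.7), COL1A2 (1.4), COL3A1 (0.8) and COL1A1 (0.6), and 1 lower, VIM (0.4). The part of these shifts in the chemokine levels was not tested.

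Signals known to switch on the cluster were followed in a list of 21 genes of the interleukin-1, tumour necrosis factor, interleukin-17 and Toll-like receptor pathways, of which 19 were tested. In siYAP over siNT, 14 were called higher and 2 lower, with a median log2 fold change of 0.65. IL1B, which encodes interleukin-1 beta, averaged 702 ± 13.4 CPM in siYAP libraries, 45.1 ± 3.82 in siTAZ libraries and 60.3 ± 2.5 in siNT libraries (SD, n = 3 each), and the groups did not overlap. Its log2 fold change was 3.54 (SE 0.04) in siYAP over siNT and -0.42 (SE 0.05) in siTAZ over siNT. IL1A rose by 4.36 (SE 0.13) in siYAP over siNT, the adaptor kinase IRAK2 by 2.03 (SE 0.09) and the receptor subunit IL1RAP by 1.54 (SE 0.08). RIPK1, a kinase of tumour necrosis factor signalling, fell by 2.28 on the log2 scale (SE 0.07), and IRAK1 fell by 0.41 (SE 0.04). TNF itself was at or under 2 counts in every library.

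For siTAZ over siNT the same list had 4 genes called higher and 4 called lower, with a median of 0.07. TLR4, the receptor for bacterial lipopolysaccharide, was higher by 0.65 (SE 0.07), and IL1RAP fell by 0.47 (SE 0.09).

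All 14 listed genes of the NF-kB system were tested, and in siYAP over siNT 12 were called higher and 1 lower, with a median log2 fold change of 0.86. The largest of the named rises was that of NFKBIZ, an inducible nuclear cofactor (2.31, SE 0.06). TNFAIP3, a ubiquitin-editing inhibitor, rose by 1.80 (SE 0.06), the inhibitor NFKBIA by 1.32 (SE 0.05) and the subunit NFKB2 by 1.24 (SE 0.05). IKBKB, a catalytic subunit of the kinase complex, fell by 0.18 (SE 0.05). After TAZ knockdown 1 was called higher, the subunit NFKB1 (0.22, SE 0.05), and 1 lower, the inhibitor NFKBIE (-0.36, SE 0.07), and the median was 0.01.

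Of 12 AP-1 and C/EBP genes, 11 were tested. In siYAP over siNT 8 were called higher and 1 lower, with a median of 1.03. CEBPD rose by 1.63 (SE 0.07), JUNB by 1.42 (SE 0.08), FOSL1 by 1.31 (SE 0.04) and CEBPB by 1.03 (SE 0.05), and FOSL2 fell by 0.41 (SE 0.04). For siTAZ over siNT 5 were called higher and 2 lower, with a median of 0.25 and rises of 0.68 (SE 0.09) for JUNB and 0.41 (SE 0.07) for CEBPD.

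Regulators of AU-rich mRNA decay did not move in a single direction. Of 9 genes, 3 were called higher and 5 lower in siYAP over siNT, with a median of -0.30. ZC3H12A, an RNase that cleaves inflammatory mRNAs, rose by 2.41 (SE 0.07), and ZFP36L1, which recruits decay enzymes to AU-rich elements, rose by 1.02 (SE 0.04). The AU-binding factors HNRNPD and KHSRP fell by 0.80 (SE 0.04) and 0.72 (SE 0.04), the kinase MAPK14 fell by 0.77 (SE 0.06), and the stabilising protein ELAVL1 fell by 0.42 (SE 0.05). In siTAZ over siNT 1 was called higher and 4 lower, with a median of -0.10, and MAPK14 fell by 1.21 (SE 0.06).

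Factors that are often secreted with these chemokines also moved. All 9 listed were called higher in siYAP over siNT, a call made for 33.8% of all tested genes. The list was chosen with earlier results of these data known. Its median log2 fold change was 3.14, which is the same with CCL20 set at its bound. The collagenase MMP1 rose by 3.14 (SE 0.04), the monocyte chemokine CCL2 by 2.98 (SE 0.07), the stromelysin MMP3 by 6.14 (SE 0.15) and the myeloid growth factor CSF2 by 4.71 (SE 0.14). CSF3, the growth factor of neutrophils, had 301, 342 and 263 counts in siYAP libraries, 0 in each siTAZ library and 4, 0 and 1 in siNT libraries. CSF3 is named for its role and was picked with its values in view. In siTAZ over siNT 5 were called lower and 1 higher, CCL2 (0.38, SE 0.08), with 18.2% and 16.4% of all tested genes so called. CSF3 was among those called lower, on the few counts given above (edgeR adjusted p = 0.0445). The median was -0.62, or -0.52 with CCL20 and CSF3, at or near 0 in both groups, set at no change. CSF2 fell by 2.28 (SE 0.32), MMP1 by 1.52 (SE 0.05), IL6 by 0.65 (SE 0.13) and IL11 by 0.62 (SE 0.09).

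**Figure D4:**
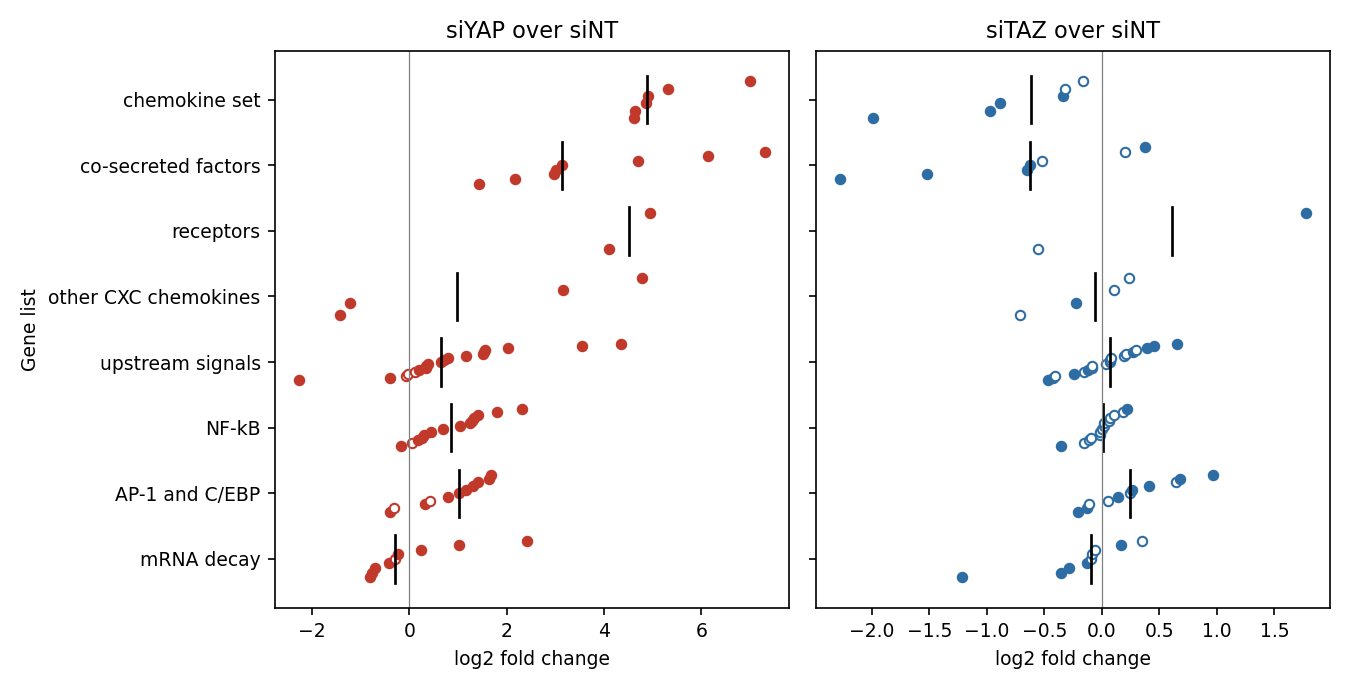
Log2 fold change of each tested gene in the chemokine set and 7 related lists, for siYAP over siNT (left) and siTAZ over siNT (right), with filled points where the test was passed, open points where it was not, and a black line at each list's median over its tested genes. The chemokine set has the rightmost median for siYAP (4.88) and a median of -0.62 for siTAZ; CCL20 in both panels and CSF3 in the right panel are not drawn because a group had 0 counts.

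The genes outside the set whose pattern over the 9 libraries was most like it were found by the root mean square difference between centred log2 CPM values and the mean profile of the 6 members, among 12740 genes. That difference was 0.254 for LINC02392, 0.278 for TFPI2, 0.281 for C3, 0.351 for VNN1, 0.358 for the gene with ID ENSG00000278626, which has no symbol in the name table, and 0.379 for CCL20. The median over all candidates was 2.68, and the 6 members themselves ran between 0.216 for CXCL1 and 0.759 for CXCL5. TFPI2, an inhibitor of serine proteases, averaged 1837 ± 27.4 CPM in siYAP libraries, 36.9 ± 7.46 in siTAZ libraries and 42.9 ± 3.44 in siNT libraries (SD, n = 3 each). C3, the central complement protein, averaged 595 ± 14.3 CPM in siYAP libraries, 8.49 ± 2.64 in siTAZ libraries and 13.0 ± 2.54 in siNT libraries, and it overlaps GPR108 in GENCODE 29. CCL20, a chemokine for CCR6-bearing lymphocytes and dendritic cells, had 126, 134 and 111 counts in the siYAP libraries and 0 in every siTAZ and siNT library, which is at least 38.2-fold higher in siYAP when the other groups are set at a floor of 3 counts per library. VNN1, which encodes a pantetheinase, and the non-coding LINC02392 were low even in siYAP libraries, at 8.34 and 7.79 CPM. ENSG00000278626 averaged 5.85 CPM in siYAP libraries and 0 in siTAZ and siNT libraries. LINC02392 averaged 0.018 CPM in siTAZ and 0.0962 in siNT libraries, and VNN1 averaged 0.111 and 0.211. For these genes and CCL20 the closeness of pattern depends on the prior count of 2 added to near-empty libraries.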

How the data were processed

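RNA of 9 LX2 libraries was sequenced. The files the authors deposited hold raw counts, whole reads for each Ensembl gene without normalization. Per the submitters' processing notes, the reads passed through STAR 2.5.0c, Trim Galore, HTSeq, Picard and SAMtools (order and roles not stated), and the build named is mm10, a mouse build, although the gene IDs are human. The annotation release, the strand setting and the treatment of reads with several matches are not given in the sources used here. In the count files 0 reads are listed as not uniquely aligned. Reads in no gene and ambiguous reads stayed out of library sizes and tests: reads in no gene averaged 6.68% of listed reads in siYAP, 5.57% in siTAZ and 4.93% in siNT libraries, and ambiguous reads 6.62% in siYAP, 6.76% in siTAZ and 6.89% in siNT libraries.

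Symbols came from a gene name table (36366 of 36601 IDs), coordinates, lengths and overlaps from GENCODE 29 on GRCh38, and promoter sequences from RefSeq on GRCh38.p14. In R 4.3.3, edgeR 4.0.16 kept 15560 genes (filterByExpr, minimum count 10, minimum total count 15), at least 99.862% of each library's counts, scaled libraries by TMM and fitted a robust quasi-likelihood model to all 9 libraries (biological coefficient of variation 0.0469 in common). Tests were two-sided with Benjamini-Hochberg adjustment over all tested genes, and a call is an adjusted p under 0.05. DESeq2 1.42.0 and limma 3.58.1 gave alternatives. Log2 CPM for ratios and patterns used a prior count of 2. Floors of 3 counts (0.157 to 0.177 CPM) cover counting error only.

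The genes and lists were chosen with earlier results of these data known. Neighbours and receptors are all accounted for, and each other list names at most 4 called genes per direction and comparison, those with the smallest p. Likeness of pattern was sought among tested genes whose average log2 CPM reached 1. Libraries with the same number did not deviate together: the correlations of their deviations from group means lay between -0.0305 and 0.0136 over 9 pairs, so the numbers were not taken as pairs. No libraries within a group agreed within sampling noise (chi-square per gene 2.54 to 5.07 over 9 pairs).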

Additional observations from a re-analysis of the deposited data

Results flagged for a closer look

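A signal outside the gene counts stood above its level in the control libraries. Reads assigned to no gene made up 6.68% ± 0.750 of listed reads in siYAP libraries and 5.57% ± 0.0523 in siTAZ libraries, against 4.93% ± 0.197 in siNT libraries (SD, n = 3 each). It was higher in both knockdowns, whereas the summed level of the 6 chemokine genes averaged 2712 ± 101 CPM in siYAP libraries and 29.4 ± 6.18 CPM in siTAZ libraries, against 65.3 ± 4.79 CPM in siNT libraries. Its part in their levels was not tested.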

How the results depend on the processing

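Each result was recomputed under 19 alternatives: upper-quartile or RLE scaling, a stricter filter (1 CPM or more in 3 libraries) or none, a block for the replicate number, a fit of the compared groups alone, DESeq2, limma-voom, an adjusted p under 0.01, a test against a fold of 1.5, and each of the 9 libraries left out. The 6 genes were called in siYAP over siNT and in siTAZ over siYAP under all of them, and the log2 fold changes in siYAP over siNT ran over 4.79 to 4.90 for CXCL1, 4.49 to 4.89 for CXCL2, 4.37 to 5.51 for CXCL3, 6.95 to 7.07 for CXCL5, 4.57 to 4.69 for CXCL6 and 5.23 to 5.41 for CXCL8. In siTAZ over siNT 99 of 114 values kept their direction and call. Leaving out 1 library gave -1.06 to -0.75 for CXCL1, -1.11 to -0.70 for CXCL2, -0.84 to 0.08 for CXCL3, -0.53 to -0.23 for CXCL5, -0.53 to 0.00 for CXCL6 and -2.06 to -1.87 for CXCL8, and 3 to 5 of the genes called lower. The direction of CXCL3 turned with limma-voom (0.27) and without siNT replicate 2 (0.01) or 3 (0.079), and that of CXCL6 without siTAZ replicate 2 (0.00318). The cause of the limma-voom value was not tested. CXCL5 also lost its call with limma-voom (adjusted p = 0.193) and at an adjusted p under 0.01. Against a fold of 1.5, 1 of the 6, CXCL8, stayed called lower in siTAZ over siNT. Over all genes that test called 1957 higher and 1895 lower in siYAP over siNT, 115 higher and 227 lower in siTAZ over siNT, and 1736 higher and 1897 lower in siTAZ over siYAP. With the replicate block, 6 genes were called higher in siYAP over siNT, 4 lower in siTAZ over siNT and 6 lower in siTAZ over siYAP, as without it, and 5240 genes in all were called higher in siYAP over siNT. Scaling moved the median of all genes by at most 0.0325. Depth limits CXCL3 and the receptors, whose control libraries held few counts.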

Other observations

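Other CXC chemokine genes, which do not carry the neutrophil-attracting motif, did not follow the 6 genes as a whole. Of 8 listed, 4 were tested, and in siYAP over siNT 2 were called higher and 2 lower. The 2 called higher, CXCL10 and CXCL11, also lie on chromosome 4, whereas CXCL12 and CXCL16, called lower, lie on chromosomes 10 and 17. CXCL10 and CXCL11, ligands of the lymphocyte receptor CXCR3, were low in all groups. CXCL11 had 78, 90 and 75 counts in siYAP libraries and 1, 6 and 1 in siNT libraries (log2 fold change 4.79, SE 0.48, edgeR adjusted p = 1.17e-13), and CXCL10 had 69, 44 and 42 counts in siYAP libraries and 4, 12 and 0 in siNT libraries (log2 3.17, SE 0.55, edgeR adjusted p = 1.72e-06). CXCL12, the stromal chemokine that retains leukocytes through CXCR4, averaged 125 ± 0.723 CPM in siYAP libraries, 287 ± 13.7 in siTAZ libraries and 336 ± 4.68 in siNT libraries (SD, n = 3 each). It fell by 1.43 on the log2 scale in siYAP over siNT (SE 0.04) and by 0.23 in siTAZ over siNT (SE 0.04). CXCL16 fell by 1.23 in siYAP over siNT (SE 0.22), and it overlaps MED11 in GENCODE 29.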
